A study of Mus musculus with 3 samples.

Results

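Messenger RNAs for splicing factors of the hnRNP and SR families, and for a set of tissue-specific splicing regulators, were measured in RNA pulled down with tagged ribosomes of endothelial cells from the mouse heart. The members are the protein-coding genes of the deposited table whose symbol starts with Hnrnp, Srsf or Rbfox, together with Ptbp1, Ptbp2, Ptbp3, Mbnl1, Mbnl2, Tra2a, Tra2b, Rbm20, Rbm24, Celf1, Celf2, Qki, Esrp1 and Esrp2. The rule found 47 genes among the 17583 genes of the table, of which 20 are Hnrnp genes, 11 are Srsf genes and 16 belong to the other families. Esrp1 is the only gene named by the rule that the table does not list, and the row Srsf3-ps, a processed pseudogene with values of 2, 0 and 4, was left out because it is not protein-coding. The rule used symbols only and no measured value.

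The samples are 3 EC-RiboTag mice of a single condition, with the genotype Cdh5-CreERT2;Rpl22tm1.1Psam and treated with tamoxifen as adults. Cre expressed under the endothelial Cdh5 promoter switches the ribosomal protein Rpl22 to a form with a hemagglutinin tag, and the tagged ribosomes were pulled down from homogenized hearts together with the RNA on them. The labels place the hearts 7 days after coronary ligation, whereas the RiboTag methods of the study mention no infarction. The titles hold the letters Rz. Elsewhere the study writes RZ for the remote zone, and it took such tissue from EC-RiboTag mice after infarction, but the labels do not tie these libraries to that zone. No input library and no control group were analysed here, and the values are therefore levels within the precipitate.

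Splicing removes introns from nuclear precursor RNA, and these RNA-binding proteins decide which exons are kept. SR proteins carry RNA recognition motifs and a tail rich in arginine and serine, and typically promote the use of the exons they bind. The hnRNPs coat nascent RNA and often act in the opposite direction. The RBFOX, MBNL, CELF, PTBP, QKI, ESRP and RBM families give tissues their own splicing patterns: ESRP proteins mark epithelia, PTBP2 and RBFOX3 mark neurons, and RBM20 and RBM24 are known for muscle, where RBM20 controls the splicing of titin.

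The tissue label was checked first. All 12 endothelial markers were detected, with a median of 672 ± 21.0 normalized counts per kilobase of transcript (SD, n = 3), and the 10 cardiomyocyte markers, all detected, came next with 565 ± 18.9. The precipitates thus held RNA of cardiomyocytes beside that of endothelial cells. Markers of both lists reached high values, such as 809 per kilobase for Eng and 819 for Myl2. Removal of duplicate reads can hold down values this high, so the medians do not give the share of each cell type. The study compared Cdh5, Pecam1, Myh6, Ptprc and Pdgfra between precipitate and input by qRT-PCR, which these libraries cannot repeat. The medians were 101 ± 20.8 for fibroblasts, 39.4 ± 7.08 for mural cells, 29.3 ± 8.63 for leukocytes, 17.4 ± 6.71 for epithelium and mesothelium, and 4.27 ± 2.00 for neurons and Schwann cells, and Cdh1, Epcam, Krt8, Snap25 and Cd3e were not listed. Values summed to between 7149102 and 7268785 per library, which corresponds to an estimated 7319000, 6755000 and 7567000 reads in mice 1, 2 and 3. In such bulk RNA, fewer cells of a type and less RNA per cell cannot be told apart.

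Sequence decides how well some of these genes can be counted at all. The authors discarded reads that map to several places, and many hnRNP and SR genes have left processed pseudogenes in the genome. Each window of 72 bases, the read length, of the members' Ensembl canonical transcripts was therefore searched for exact copies outside the gene. At least 1 window had a copy in 24 of the 47 members, and in 10 members more than 10% of the windows did. The same shares over all protein-coding genes were not computed, so these counts do not set the members apart from other genes. Hnrnpa1, which encodes one of the most abundant hnRNPs, stood out with copies of 93.0% of its 1734 windows at 17 loci. Its close relative Hnrnpa3 followed with 83.6% of 5151 windows at 44 loci. The next members were Hnrnph2 with 44.0%, Srsf10 with 36.6%, Hnrnpf with 33.3% and Srsf5 with 33.1%. Tra2b had 32.5%, Srsf3 30.1%, Hnrnpk 22.6% and Hnrnpc 13.3%. The copies of Hnrnpf lay at 484 loci, with up to 395 copies of a window. Hnrnpd and Hnrnpr had copies at 5622 and 2896 loci, but in only 0.485% and 3.27% of their windows. Whether the copies are processed pseudogenes or other repeated sequence was not tested. For Hnrnpa3, the coding window with the most copies is shown, since a read that matches it cannot be assigned to the gene. It is copied 20 times elsewhere (GRCm39, chr2:75495423-75495494, plus strand). The window lies within a single coding exon, is written 5′ to 3′, and is copied over its whole length, so that no base is set in capitals.
Hnrnpa3: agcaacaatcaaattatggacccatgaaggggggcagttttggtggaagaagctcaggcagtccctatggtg

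Few reads were assigned to pseudogenes of the table that lie at the copied loci. The highest was Gm7964, at a copy of Hnrnpk, with values of 27, 36 and 38 against 1429, 1516 and 1355 for Hnrnpk. Gm5643, at a copy of Hnrnpa1, had 2, 5 and 2. Because reads that match both a gene and its copy were discarded, these low values do not show how many reads came from either. How many reads of Hnrnpa1, Hnrnpa3 and the other members with copied windows were discarded was not tested.

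**Figure D1:**
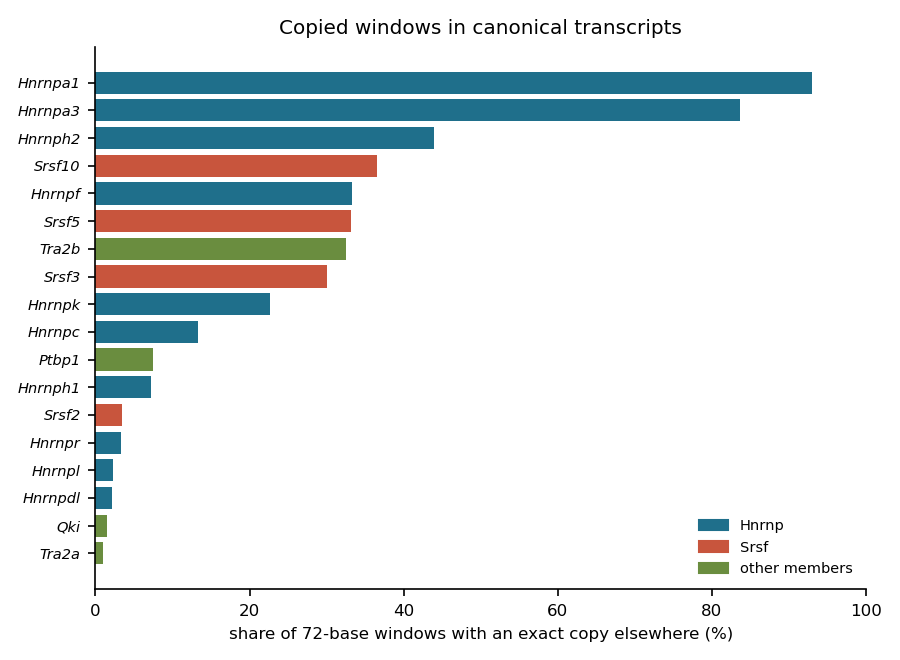
Share of the 72-base windows of the canonical transcript that have an exact copy outside the gene, in percent, for the 18 members with a share over 1%. Bars are single values without error, and the bars of Hnrnpa1 (93.0%) and Hnrnpa3 (83.6%) are the longest.

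Nearly all members were present in every mouse. A value of at least 10 in each of the 3 mice was reached by 44 of the 47 members, and by 88.4% of all 14246 protein-coding genes listed. The exceptions were Rbfox3, Esrp2 and Srsf12. To compare genes with each other, each value was divided by the length of the canonical transcript in kilobases, because a longer RNA yields more reads. By this measure 39 of the 47 members lay above the median of the 14236 protein-coding genes with a known length (by definition 50.0% do so), and 18 lay within the highest 10.0%. Divided by the length of all annotated exons instead, 39 members were again above the median, but 12 and not 18 were in the highest 10%. The median over members was 328 ± 2.26 per kilobase (SD, n = 3 mice), against 104 ± 1.83 for the protein-coding genes and 176 ± 1.16 for those whose mean reached 200.

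**Figure D2:**
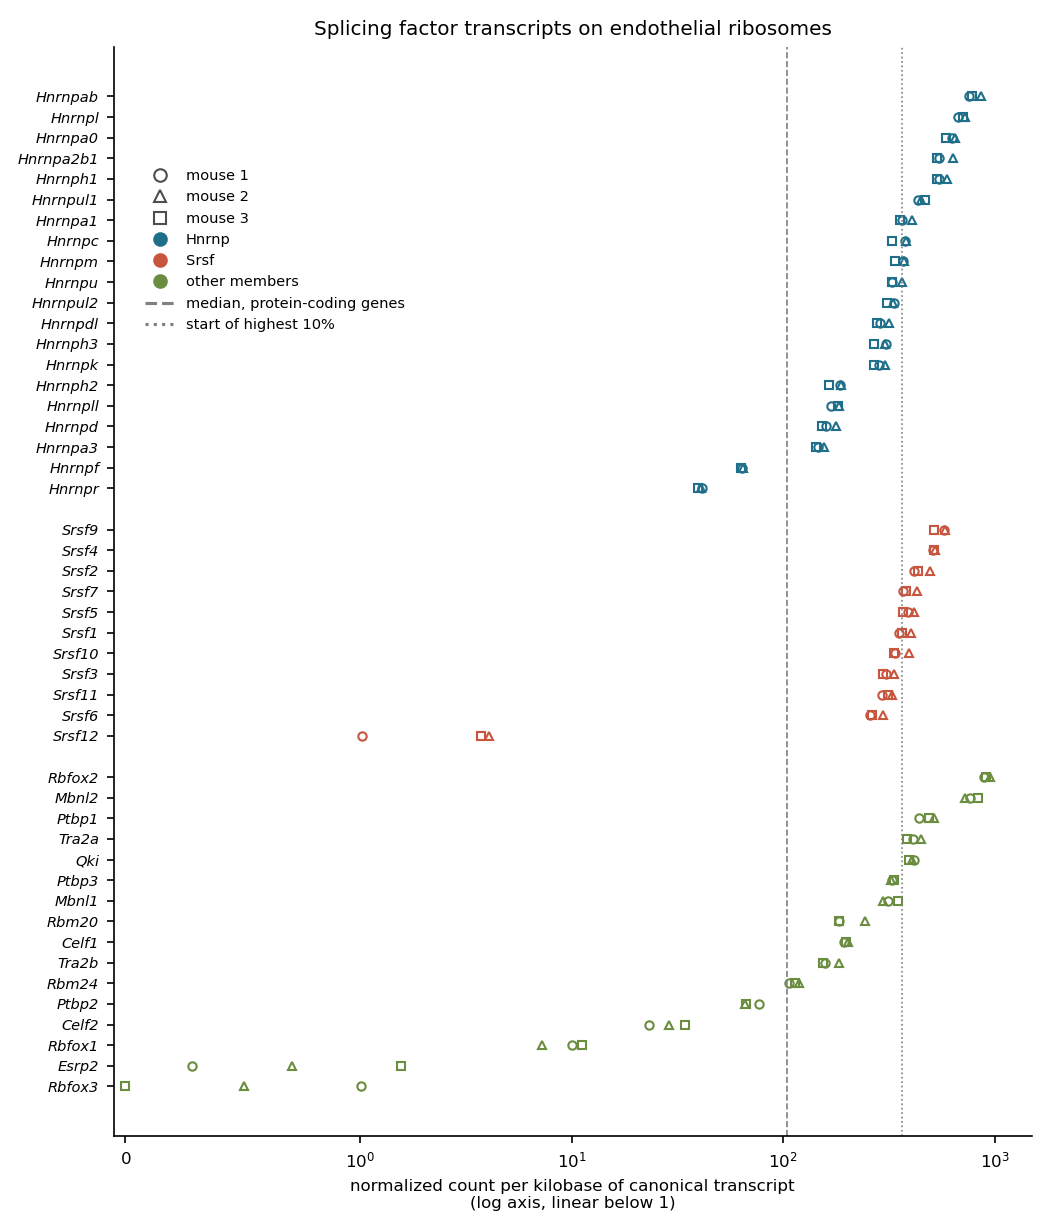
Normalized count per kilobase of canonical transcript of the 47 members, by family and ordered by mean, with 1 symbol per mouse on a log axis that is linear below 1. The dashed line is the median of protein-coding genes at 104 and the dotted line the start of the highest 10% at 364, and 39 members have a mean to the right of the dashed line.

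The SR genes had a median of 373 ± 25.6 per kilobase (SD, n = 3). Apart from Srsf12, with 2.93 per kilobase, 10 of the 11 lay between 272 for Srsf6 and 558 for Srsf9. Srsf1, which encodes the founding SR protein and lies at chr11:87938199-87944581 (plus strand), had the highest undivided count of the family, with 1908, 2178 and 1985 in mice 1, 2 and 3 (2024 ± 139, SD, n = 3). Srsf9, whose canonical transcript of 1170 bases is the shortest of all members, had 675, 681 and 604. Per kilobase this order turned, with 558 ± 36.6 for Srsf9 and 373 ± 25.6 for Srsf1, and it turned back per kilobase of all annotated exons, with 65.0 for Srsf9 and 350 for Srsf1. The order of these genes is therefore not settled by the table.

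Srsf4, Srsf5 and Srsf6, which encode larger and related SR proteins, had 515 ± 6.31, 390 ± 23.1 and 272 ± 21.9 per kilobase (SD, n = 3). Srsf4 had the steadiest values of the SR genes, with 1199, 1228 and 1208. Srsf2, also known as SC35, had 1029, 1226 and 1081, or 446 ± 41.0 per kilobase. The small SR proteins encoded by Srsf3 and Srsf7, which shuttle between nucleus and cytoplasm, had 884, 965 and 860 for Srsf3 and 899, 1051 and 931 for Srsf7. Srsf10, a splicing repressor when dephosphorylated, had 1031, 1200 and 1025, and Srsf11 had 921, 1025 and 987. In each of these 10 genes the highest value was that of mouse 2. Srsf12 alone of the family was near the floor, with 3, 12 and 11.

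The Hnrnp genes covered a wider range, from 40.6 to 796 per kilobase, with a median of 332 ± 14.4 (SD, n = 3). Hnrnpab, of the AUF1-like group, was the highest with 796 ± 53.3 per kilobase and values of 1570, 1782 and 1619. Hnrnpl, which binds CA-rich RNA, followed with 699 ± 28.9 per kilobase and values of 1435, 1555 and 1523. Its paralog Hnrnpll, known from lymphocytes, had 811, 878 and 875 and only 178 ± 7.87 per kilobase. The ratio of Hnrnpl to Hnrnpll was 3.93-fold, a log2 ratio of 1.98 ± 0.01 (SD, n = 3), with 0.82 without division by length.

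Within the A/B group, Hnrnpa0 (1687, 1743 and 1576) and Hnrnpa2b1 (1594, 1853 and 1567) had 623 ± 31.7 and 569 ± 53.8 per kilobase (SD, n = 3). Hnrnpa1 had 656, 731 and 643, or 375 ± 26.3 per kilobase, and Hnrnpa3 had 763, 817 and 749, or 149 ± 6.88 per kilobase. The lower values of Hnrnpa1 and Hnrnpa3 are those of the members with the most copied windows. When length was counted only over windows without a copy, the log2 ratio of Hnrnpa2b1 to Hnrnpa1 went from 0.60 to -3.25, and that of Hnrnpa2b1 to Hnrnpa3 from 1.93 to -0.66. This correction leaves 122 windows for Hnrnpa1, fewer than its counts in any mouse, and leaves out exons that other transcripts of the gene use. It therefore gives neither a level nor the share of reads that were lost. Which of the A/B genes is highest was thus not resolved.

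Of the H/F group, which binds runs of guanine, Hnrnph1 was the highest with 1312, 1432 and 1293, or 558 ± 31.2 per kilobase (SD, n = 3). Hnrnph3 had 710, 703 and 629, the X-linked Hnrnph2 had 470, 475 and 418, and Hnrnpf had 348, 352 and 347. Hnrnph1 exceeded Hnrnph3 by a log2 ratio of 0.93 ± 0.09 and Hnrnph2 by 1.63 ± 0.08 per kilobase (SD, n = 3), and the direction held under every length tried. Over windows without a copy the ratio to Hnrnph2 was 0.91. A part of the Hnrnph2 and Hnrnpf windows is copied elsewhere, as given above.

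The scaffold-like hnRNP U, which binds chromatin, was represented by Hnrnpu with the highest undivided count of the Hnrnp genes (2493, 2776 and 2495; rank 75 of all genes). Its relatives Hnrnpul1 (1737, 1784 and 1873) and Hnrnpul2 (1858, 1839 and 1724) were lower in each mouse before division by length. Per kilobase of canonical transcript Hnrnpu and Hnrnpul2 changed order between mice, with log2 ratios of -0.03, 0.14 and 0.08, against a mean of 0.52 without division. Hnrnpk, which binds cytosine-rich RNA, had 1429, 1516 and 1355, Hnrnpm had 1482, 1496 and 1352, and Hnrnpc, a core packaging hnRNP, had 1207, 1223 and 1057. Hnrnpd, which encodes the mRNA decay factor AUF1, had 1233, 1362 and 1176, and Hnrnpdl had 989, 1095 and 966. Hnrnpr was the lowest Hnrnp gene per kilobase with 40.6 ± 0.80 (SD, n = 3), although its undivided values of 884, 881 and 853 were those of a mid-level gene. Its canonical transcript of 21475 bases is the longest of all members.

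Among the tissue-specific regulators, 1 member carried most of the signal of the Rbfox genes and 1 that of the Celf genes. This did not hold for the Mbnl genes, or for Ptbp1 and Ptbp3. Rbfox2 (chr15:76963190-77191204, minus strand) had 1973, 2102 and 2017, or 916 ± 29.6 per kilobase (SD, n = 3), the highest level per kilobase of all members and rank 17 of the protein-coding genes on this scale. Rbfox1 had 44, 32 and 49, and the neuronal Rbfox3 had 4, 2 and 0. The ratio of Rbfox2 to Rbfox1 was 97.1-fold, a log2 ratio of 6.60 ± 0.35 (SD, n = 3), 5.81 per length of all annotated exons and 5.61 without division. Rbfox2 had 0.916 normalized counts per base of its canonical transcript. Duplicate removal limits a transcript to about 1 read per base of the exons it uses. The canonical length does not mark this limit exactly, since the highest protein-coding gene had 2132 per kilobase. How far the limit holds down the rank and ratio of Rbfox2 was not tested. No size of the ratio is given for Rbfox3, whose values are at the limit of counting, although its pair with Rbfox2 is among those counted below. The level of Rbfox2 rests on a canonical transcript of 2218 bases, whereas all its annotated exons span 8501 bases and give 239 ± 7.71 per kilobase, order 8 among the members.

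Qki (chr17:10421530-10538783, minus strand), which encodes an RNA-binding protein needed for blood vessel formation in the embryo, had the highest undivided count of all members. Its values were 3966, 3868 and 3753 (3862 ± 107, SD, n = 3), which placed it at rank 12 of all 17583 genes. Per kilobase of its canonical transcript of 9513 bases it had 406 ± 11.2 and was order 14 of the members, within the highest 7.54% of protein-coding genes. The spread of Qki between mice was a coefficient of variation of 2.76%.

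The pyrimidine-tract-binding proteins, which mostly repress exons, were all present. Ptbp1 had 1364, 1597 and 1513, Ptbp3 had 2248, 2223 and 2280, and the neural Ptbp2 had 290, 249 and 253. Ptbp1 exceeded Ptbp2 6.85-fold per kilobase (log2 ratio 2.78 ± 0.23, SD, n = 3), and the log2 ratio was 3.86 per length of all annotated exons. Between Ptbp1 and Ptbp3 the direction depended on length, with a log2 ratio of 0.54 per kilobase and -0.60 without division.

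Mbnl1 and Mbnl2, the muscleblind genes, which promote adult splicing patterns in muscle, had almost the same undivided values. Mbnl1 had 1749, 1659 and 1947 and Mbnl2 had 1738, 1648 and 1910. Both genes were lowest in mouse 2 and highest in mouse 3. Per kilobase of canonical transcript Mbnl2 was 2.42-fold higher (773 ± 58.3 against 319 ± 26.4, SD, n = 3), but per kilobase of all annotated exons both genes were lower and closer, with 111 ± 8.37 and 88.0 ± 7.26. The CELF proteins antagonize muscleblind at many exons, and here Celf1 (1543, 1627 and 1588) exceeded Celf2 (189, 235 and 280) 6.98-fold per kilobase, a log2 ratio of 2.80 ± 0.26 (SD, n = 3), and 4.37 per length of all annotated exons.

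Tra2a and Tra2b encode SR-like proteins that activate exons rich in purines. Tra2a had 787, 865 and 738 and Tra2b had 557, 646 and 544, and Tra2a was 2.51-fold higher per kilobase. The log2 ratio of Tra2b to Tra2a was -1.33 on this scale, -0.80 over windows without a copy and -0.45 without division by length. The epithelial regulator Esrp2 had 2, 5 and 11 and was 0.85 ± 0.65 per kilobase (SD, n = 3), at the floor of the table.

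Rbm20 and Rbm24 are known from heart muscle, so their presence was set beside the cardiomyocyte markers. Rbm20 (chr19:53665737-53855511, plus strand) had 1223, 1614 and 1217, or 204 ± 34.3 per kilobase (SD, n = 3), within the highest 27.9% of protein-coding genes. Rbm24 had 364, 403 and 388, or 113 ± 5.77 per kilobase. All 10 cardiomyocyte markers were detected and none was at 0: their values in mice 1, 2 and 3 summed to 20679, 21339 and 24237, and the lowest of them before division by length, Tnni3, had 644, 581 and 535. Ttn, whose RNA is spliced by RBM20 in muscle, had 7379, 7743 and 10190. Rbm20 was thus highest in mouse 2, with mice 1 and 3 at nearly the same value, whereas the summed markers were highest in mouse 3. That sum is carried by Ttn and Ryr2: without them the other 8 markers summed to 10020, 9929 and 9561, and 6 of the 10 markers were highest in mouse 1, 3 in mouse 3 and 1 in mouse 2. How much of the Rbm20 and Rbm24 signal comes from cardiomyocyte RNA was not tested.

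In all, 23 pairs of paralogs were compared by the log2 ratio of their values per kilobase within each mouse. In 22 of them the sign was the same in each of the 3 mice. With 3 mice the exact two-sided sign-flip permutation test cannot go below p = 0.25, and that was its value for these 22 pairs (0.261 after Benjamini-Hochberg adjustment over 23 pairs), and 0.5 for Hnrnpu and Hnrnpul2. No pair can therefore reach 0.05. A more telling limit is length: 12 pairs kept the sign of their mean log2 ratio under every alternative and 11 did not. The 12 are Rbfox2 over Rbfox1 and Rbfox3, Ptbp1 over Ptbp2, Celf1 over Celf2, Tra2a over Tra2b, Rbm20 over Rbm24, Hnrnpa0 over Hnrnpa2b1 (by the mean over mice), Hnrnph1 over Hnrnph2 and Hnrnph3, Hnrnpab over Hnrnpd, Hnrnpl over Hnrnpll and Srsf10 over Srsf12. The ratios to Rbfox3 (4, 2 and 0) and to Srsf12 (3, 12 and 11) rest on values near the floor, so only their direction is used. The log2 ratio of Hnrnpa2b1 to Hnrnpa0 was only -0.0006 without division by length and took both signs among the mice, so these genes did not differ on that scale beyond the spread. Along the order of all members, a member stood apart from the next one by over 1 SD (the larger SD of both) in 15 of 46 steps, and in 31 it did not.

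**Figure D3:**
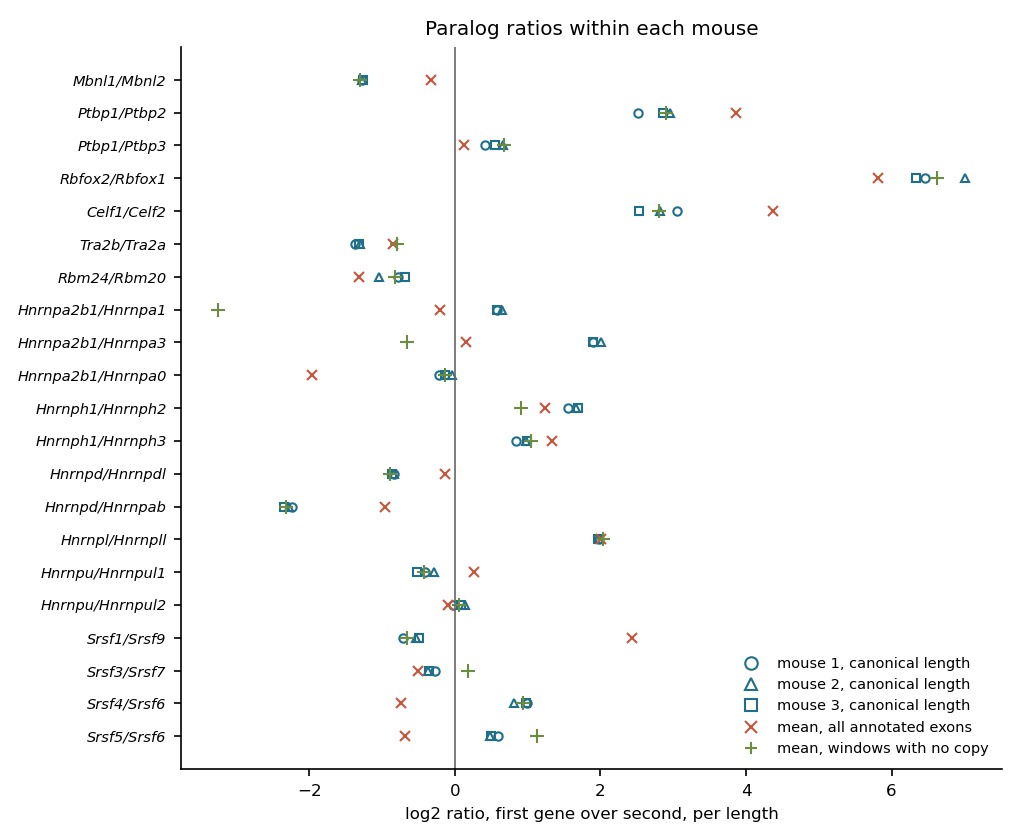
Log2 ratio of the first gene to the second for 21 paralog pairs, per kilobase of canonical transcript in each mouse (open symbols), and as the mean over mice per length of all annotated exons (crosses) and per windows without a copy (plus signs). Mice lie close together within a pair, while crosses or plus signs fall on the other side of 0 in pairs such as Srsf1/Srsf9 and Hnrnpa2b1/Hnrnpa1. The pairs with Rbfox3 and Srsf12 are not drawn.

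The spread between mice was described by the coefficient of variation. Of the 43 members with a mean of at least 200, 0 had a coefficient of variation over 20%, compared with 8.00% of the 9358 genes of the table with such a mean. Over 10% lay 2 members, Celf2 and Rbm20, against 32.1% of all these genes. The median coefficient was 6.56% for the members and 7.32% for protein-coding genes with a mean of at least 200. These sets share the minimum of 200 but not the level. The median of the mean values was 1112 for the 47 members and 591.5 for those protein-coding genes. Spread was not compared at equal level. Celf2 had 19.4%, with its lowest value in mouse 1 and its highest in mouse 3, and stayed between 12.4% and 27.4% whichever mouse was left out. Rbm20 had 16.8%, which rested on mouse 2 alone, since it was 0.348% without that mouse. In 4 members, Hnrnpf, Srsf4, Ptbp3 and Hnrnpr, the coefficient was below that of counting error alone (for Hnrnpf 0.758% against 5.35%). The same share over all genes was not computed, so this count does not set the members apart from other genes. Removal of duplicate reads caps a transcript at about 1 read per base of the exons it uses. Per base of canonical transcript, the median was 0.325 normalized counts for the members against 0.104 for protein-coding genes. Of the 4 members just named, Srsf4 had 0.515 and Ptbp3 0.328, whereas Hnrnpf had 0.0636 and Hnrnpr 0.0406. The part of this cap in the spread of the members was not tested.

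**Figure D4:**
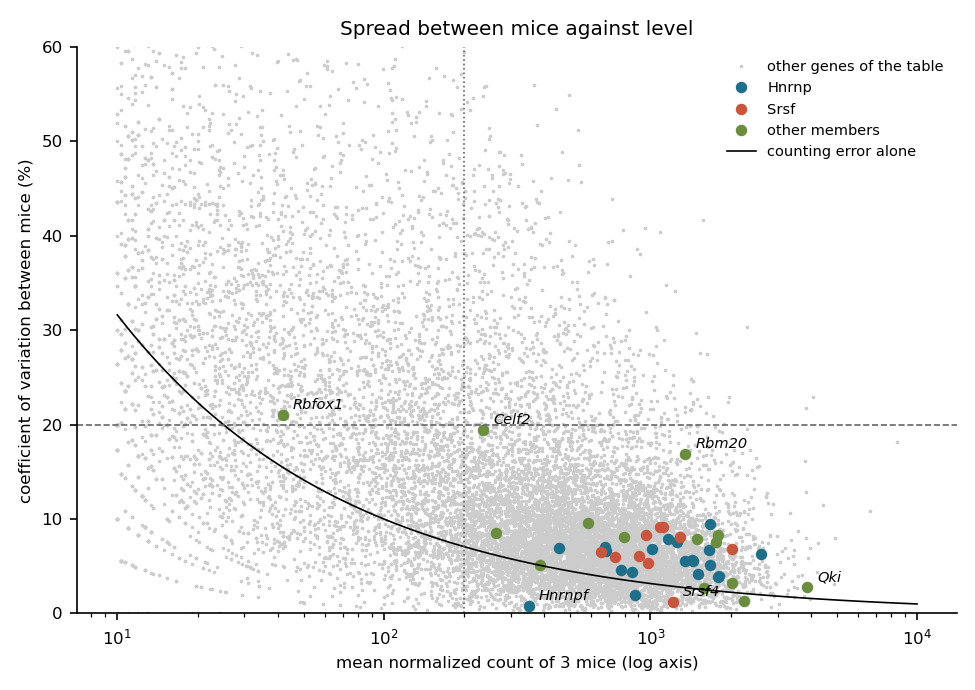
Coefficient of variation between the 3 mice, in percent, against the mean normalized count on a log axis, for members (coloured) and the other genes with a mean of at least 10 (grey); the vertical axis ends at 60%. The dashed and dotted lines mark 20% and a mean of 200, the curve is the counting error alone, and no member right of the dotted line lies above the dashed one.

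The small differences between mice were not evenly shared out. Mouse 2 had the highest value in 33 of the 43 members with a mean of at least 200, compared with 32.1% of the 9234 protein-coding genes of that level. Mouse 1 was highest in 5 members (37.2% of these genes) and mouse 3 in 5 (29.9%). All 10 SR genes and 16 of the 20 Hnrnp genes were highest in mouse 2, and 7 of the 13 others. The excess was small: the median ratio of mouse 2 to the mean of the other mice was 1.11 for the SR genes, 1.08 for the Hnrnp genes and 1.04 for the others, against 1.00 for the protein-coding genes. The largest among the SR and Hnrnp genes were Hnrnpa2b1 with a log2 ratio of 0.23, Srsf10 with 0.22 and Srsf2 with 0.22. Mbnl1, Mbnl2, Ptbp2 and Ptbp3 went the other way and were lowest in mouse 2. The comparison was made after the values had been seen, and the members are not independent of each other. The count stayed at 33 of 43 after rescaling by trimmed means or to equal totals. Mouse 2 is also the library with the fewest reads, and the part of depth in this pattern was not tested.

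**Figure D5:**
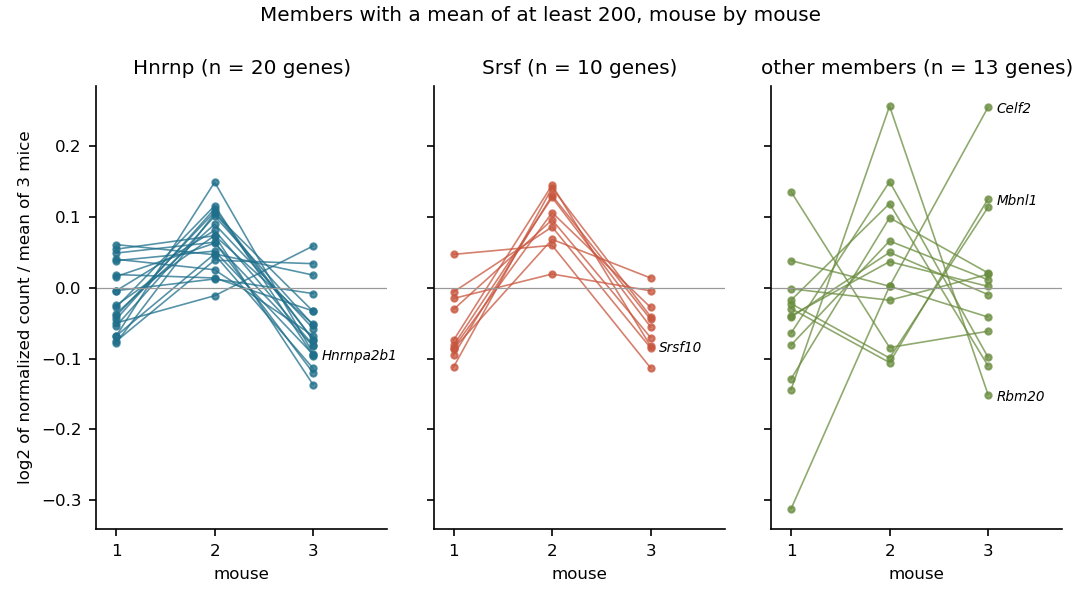
Log2 of the normalized count in each mouse over the mean of the 3 mice, for the 43 members with a mean of at least 200, with 1 line per gene in the Hnrnp, Srsf and other families. All 10 Srsf lines peak at mouse 2, whereas the other members include lines that are lowest there, such as Mbnl1.

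Other genes of the splicing machinery showed the pattern in part. Of the 31 genes of the core spliceosome, all were detected, 27 had a value per kilobase above the protein-coding median, and 19 of the 27 with a mean of at least 200 were highest in mouse 2 (70.4%). Snrpb, a subunit of the Sm ring, was the highest of them with 679 ± 46.3 per kilobase and values of 795, 839 and 732 (SD, n = 3), and the imprinted Snrpn the lowest with 31.7 ± 6.02. Of 40 other regulators of alternative splicing, 33 were listed and detected, led by the poly(C)-binding proteins Pcbp2 with 724 ± 27.8 and Pcbp1 with 600 ± 18.3 per kilobase. In this list, 18 of the 27 genes of sufficient level were highest in mouse 2 (66.7%). Celf3, Celf6, Elavl2, Elavl3, Elavl4, Khdrbs2 and Srrm3 were not listed.

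In the lists of SR kinases and import, SR-related genes and decay, the share highest in mouse 2 was between 22.2% and 30.8%. Of the 10 kinase and import genes, all were detected, and 2 of the 9 with a mean of at least 200 were highest in mouse 2 (22.2%). Clk1, a nuclear kinase of SR proteins, was the highest with 401 ± 23.0 per kilobase (745, 744 and 673), and the muscle-enriched Srpk3 the lowest with 28.4 ± 6.47 (SD, n = 3). Of 13 SR-related genes, 4 were highest in mouse 2 (30.8%), and Luc7l2 had the highest level with 564 ± 28.1. Of the 12 genes of nonsense-mediated decay with a mean of at least 200, 3 were highest in mouse 2 (25.0%), and Eif4a3, a core subunit of the exon junction complex, had the highest level with 436 ± 21.6. No list was tested for a difference from the others.

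Many splicing factors control their own level through poison exons, which introduce a stop codon and send the transcript to nonsense-mediated decay. Reads on such exons are counted for the gene, and the table does not separate them. In the GENCODE annotation of GRCm39, 36 of the 43 members with a mean of at least 200 had at least 1 transcript classed as a target of this decay, close to the 80.6% of protein-coding genes of that level. At least 10 such transcripts were annotated for 15 of the 43 members, against 26.6%. The SR genes of this level had a median of 24 and the Hnrnp genes of 4.5, against 4 for protein-coding genes. The median number of annotated transcripts of any class also differed, with 39 for the SR genes, 21 for the Hnrnp genes and 18 for protein-coding genes. The counts of decay targets were not adjusted for this. Srsf5 had the most of all members with 55, followed by Srsf7 with 35, and Srsf10 and Hnrnph3 had 30 each. Hnrnpa0, which has a single annotated transcript, had none.

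Promoter sequence was described from the RefSeq windows of 300 bases (assembly GRCm38.p6), which run from 250 bases before to 50 after the start. They were found for 40 of the 47 members and not for Esrp2, Hnrnpll, Hnrnpul2, Ptbp3, Qki, Rbfox2 and Rbm20. At least 20 CG dinucleotides, which read the same on both strands, were found in 45 of the 58 windows of members (77.6%), in 56.9% of those of protein-coding genes whose mean reached 200, and in 26.5% of all 32851 windows. The word TATAAA, on either strand, was found in 10.3% of the windows of members, 6.66% of those of the expressed genes and 13.6% of all. Among members with a single window, Hnrnpa0 had the most CG (52) and Rbfox3 the fewest (4), which were order 5 and order 47 of the members by level per kilobase. CG content did not follow level throughout: Mbnl2 with 10 CG was order 3, and Srsf12 with 26 was order 45. To show this contrast, the 250 bases before each start are printed 5′ to 3′ on the gene's strand with every CG in capitals. Their places were found by exact match in GRCm39, at chr13:58276371-58276620 (minus strand) for Hnrnpa0, directly before the gene, and at chr11:118651868-118652117 (minus strand) for Rbfox3, inside the span of the gene in the table.
Hnrnpa0: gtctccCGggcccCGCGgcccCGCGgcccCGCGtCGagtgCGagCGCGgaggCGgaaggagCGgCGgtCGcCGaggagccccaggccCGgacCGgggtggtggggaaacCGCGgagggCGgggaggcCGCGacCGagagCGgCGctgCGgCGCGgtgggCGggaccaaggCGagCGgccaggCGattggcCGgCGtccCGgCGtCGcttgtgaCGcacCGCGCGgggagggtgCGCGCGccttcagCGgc
Rbfox3: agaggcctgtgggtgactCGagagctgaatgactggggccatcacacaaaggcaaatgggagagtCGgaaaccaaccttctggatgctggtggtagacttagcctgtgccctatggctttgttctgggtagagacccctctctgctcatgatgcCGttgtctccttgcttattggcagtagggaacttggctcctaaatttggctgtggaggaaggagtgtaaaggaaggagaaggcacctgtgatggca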

How the data were processed

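Ribosome-associated RNA of 3 EC-RiboTag mice was read from one end over 72 bases. According to the methods and the processing notes of the submitters, the authors trimmed reads with Trimmomatic 0.39, aligned them with STAR 2.7.11a to mm39, removed duplicates with Picard 3.1.1 as well as multi-mapping, ribosomal and mitochondrial reads, and counted strand-matched exonic reads of single genes with featureCounts 2.0.4. The deposited values are classed as a score, since the authors normalized the counts with DESeq2 1.36.0 and rounded them to whole numbers, and no count model was applied. Duplicate removal limits a transcript to about 1 read per base of the exons it uses.

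Columns were mapped to mice by sample title. Levels are means and SDs over mice, divided where stated by the Ensembl canonical transcript length from GENCODE for GRCm39, which is newer than the annotation used by the authors and holds 17475 of the 17583 identifiers. Paralog ratios used a pseudocount of 0.5 and an exact sign-flip permutation test. Reads per library were estimated from gaps and repeats that rounding of scaled counts left among small values. Copies of 72-base windows were searched with BLAST 2.17.0, and hits within 5000 bases were joined to a locus. Functions were tested on simulated data. Python 3.11.15, numpy 2.4.6, pandas 2.3.3, matplotlib 3.10.9 and samtools 1.23.1 were used. Every member may be named, and of the other lists the genes at both ends by level. The members and lists were chosen with earlier results of these data known. Protein sequences were not used here. A further copied window is not reported here. The SDs are those between libraries that the labels call biological replicates. Alternatives were other lengths, scalings, minimum values and pseudocounts, and leaving out each mouse. Those for the counts by highest mouse were chosen after seeing the data.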

Additional observations from a re-analysis of the deposited data

How the results depend on the processing

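With a single condition and 3 mice, no difference between conditions was tested. No paired analysis was possible because there is only 1 group. Of 219 alternative values for 32 results, 196 kept their direction or stayed within the limit set for a change, 7 moved and 16 reversed. For counts this limit was wide: 12 and 24 members in the highest 10%, in place of 18, passed as unchanged. The 24 came from counting length over windows without a copy. That shortened the members only and no other gene, so it raised their values per kilobase by construction. Leaving out a mouse cannot reverse a pair with the same sign in every mouse. The 196 thus include values whose direction was fixed beforehand and do not measure robustness. Levels of single members are not among the 219. Of their 141 alternative values, 40 moved by over 1 SD, all with the length of all annotated exons (40 of 47 members). The remaining 101 did not. Leaving out each mouse gave 44 to 45 detected members, 16 to 19 members in the highest 10% per kilobase and 39 above the median. The number of members with a coefficient of variation over 20% was 0, 2 at a limit of 15% (Celf2 and Rbm20), and between 0 and 1 with a mouse left out, the 1 being Celf2 without mouse 2. The count of members highest in mouse 2 was 20 of 26 with a mean of at least 1000 (26.8% of protein-coding genes). It was 14 of 20 without a copied window, for which no share over all genes was computed. With mouse 3 or mouse 1 left out it was 35 to 37 of 43, where 48.1% and 55.0% of protein-coding genes were higher in mouse 2. These alternatives were chosen after seeing the data. The family medians fell to 152 (Hnrnp), 129 (SR) and 95.9 (others) per kilobase of all annotated exons. With this length the log2 ratios that reversed were Hnrnpa2b1/Hnrnpa1 (-0.20), Hnrnpu/Hnrnpul1 (0.27), Hnrnpu/Hnrnpul2 (-0.10), Srsf1/Srsf9 (2.43), Srsf4/Srsf6 (-0.75) and Srsf5/Srsf6 (-0.68). Without division by length they were Mbnl1/Mbnl2 (0.0155), Ptbp1/Ptbp3 (-0.60), Hnrnpd/Hnrnpdl (0.31), Hnrnpu/Hnrnpul1 (0.52), Srsf1/Srsf9 (1.63), Srsf4/Srsf6 (-0.0904) and Srsf5/Srsf6 (-0.81), and counted over windows without a copy Hnrnpa2b1/Hnrnpa1 (-3.25), Hnrnpa2b1/Hnrnpa3 (-0.66) and Srsf3/Srsf7 (0.17). These values change by construction with the length used, and the transcripts actually present were not determined. For Rbfox3, Esrp2 and Srsf12, absence and low level cannot be told apart at this depth.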
